A study of Mus musculus with 5 samples.

Results

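The genes described here encode neurexins, neuroligins and leucine-rich repeat transmembrane neuronal proteins (LRRTMs), adhesion proteins that meet across the synaptic cleft. They were chosen by name, with earlier results of these data known, by a rule that itself uses no measured value. They comprised Nrxn2, Nrxn3, Nlgn1, Nlgn2, Nlgn3, Lrrtm1, Lrrtm2, Lrrtm3 and Lrrtm4, 9 of the 21938 protein-coding genes of the annotation. For each gene, all peaks of NEUROD2 binding were taken that overlapped its body in the mouse genome build GRCm38 (mm10) or the 10 kb on either side of it, together called its span.

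Binding had been measured by ChIP-Seq, in which DNA fragments bound by a protein are recovered with an antibody and sequenced. The tissue was cerebral cortex of untreated wild-type BALB/c mice at postnatal day 0, pooled from 5 littermates of either sex. A single library was made for each of 3 NEUROD2 antibodies, of which ab168932 is antibody 1, ab104430 is antibody 2 and ab109406 is antibody 3. A library of an antibody against GFP served as the control of peak calling, and input DNA had been sequenced but did not enter the values given here. It is not known if separate mice were used for the antibodies, so differences between antibodies cover antibody and library preparation, and possibly not mice. The peak lists hold no read counts, so the depth behind each value is unknown and the tissue label could not be checked against marker genes.

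Neurexins sit in the presynaptic membrane, and each gene can start at separate promoters that give a long alpha form and a shorter beta form, with extensive alternative splicing in both. Neuroligins and LRRTMs are their partners on the postsynaptic side, where neuroligin 1 is found mainly at excitatory synapses, neuroligin 2 at inhibitory synapses and neuroligin 3 at both, while LRRTMs organise excitatory synapses. NEUROD2 is a basic helix-loop-helix transcription factor of cortical excitatory neurons that binds E-boxes, DNA words of the form CANNTG.

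The lists of antibodies 1, 2 and 3 held 5202, 11196 and 3164 peaks genome-wide, and each peak carries a score, minus 10 times the log10 of its p from peak calling, with a lowest value of 50. Overlapping peaks, by 1 bp or more, were joined into 12637 sites, of which 2088 (16.5%) had a peak of every antibody and 6598 (52.2%) a peak of antibody 2 only.

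The 9 spans held 12 sites made of 22 peaks. A site was present in 6 of the 9 genes, Nrxn2, Nrxn3, Nlgn1, Nlgn2, Lrrtm2 and Lrrtm4, against 35.2% of all protein-coding genes. A site with all 3 antibodies was present in 3 genes, Nrxn3, Nlgn2 and Lrrtm4, against 7.52% of all genes, and the one near Nlgn2 lay at the promoter of its neighbour Plscr3. Nlgn3, Lrrtm1 and Lrrtm3 had no peak of any antibody. These counts are not corrected for length, and 3 of the genes have spans of 500 kb or more. Antibody 2 carried much of the count: without it 7 sites were left.

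By their midpoints, 9 sites lay in introns, 1 of them in an intron of a neighbour of Nrxn2, and 3 within 1000 bp of an annotated transcription start site (TSS). The neurexin genes had 6 sites, the neuroligin genes 4 and the LRRTM genes 2, with 1 site of all 3 antibodies in each of these families. In addition to the 3 sites of all antibodies, 3 were made by antibodies 1 and 2 together, 5 by antibody 2 only and 1 by antibody 3 only. Sites of antibody 2 only were 41.7% of the sites at these genes. A minimum score of 100 per peak left 6 sites.

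**Figure D1:**
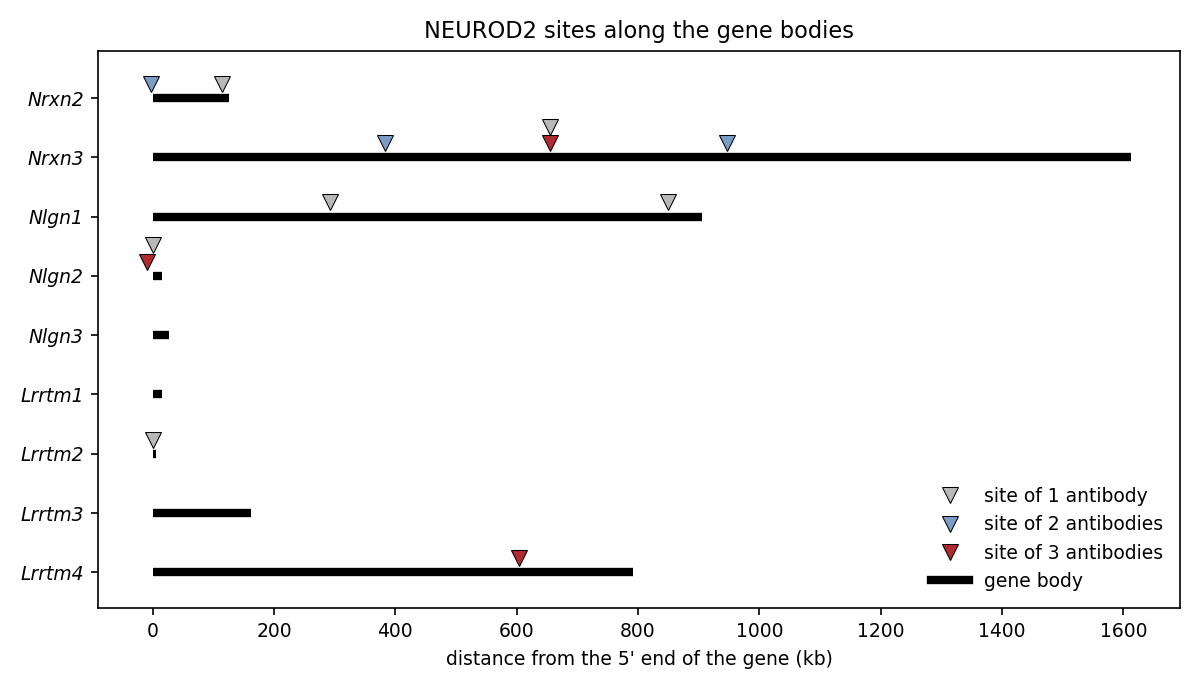
Position of the 12 sites along the 9 genes. The horizontal axis is the distance from the 5′ end of each gene in kb, black bars are gene bodies, and the colour of a triangle gives the number of antibodies with a peak there, with a second triangle drawn higher where a gene has sites close together. The sites of Nrxn3, Nlgn1 and Lrrtm4 lie far inside the genes, and those of Nlgn2 and Lrrtm2 at or near the 5′ end.

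The DNA under the sites of several antibodies in and next to the neurexin and LRRTM genes is given to show the E-boxes and their spacing. Letters are from the RefSeq GRCm38 assembly, which is of the strain C57BL/6J and not BALB/c, and are written 5′ to 3′ on the plus strand with E-boxes in capitals. The Nrxn3 stretches at chr12:89106472-89106669, chr12:89377449-89377615 and chr12:89668957-89669067 hold all E-boxes of these sites, as does the Nrxn2 stretch at chr19:6416455-6416603. For Lrrtm4 the 300 bases with the most E-boxes are given, chr6:80622747-80623046, with 4 of the 6 of the site. None of these stretches overlaps an annotated exon.
Nrxn3 site 1: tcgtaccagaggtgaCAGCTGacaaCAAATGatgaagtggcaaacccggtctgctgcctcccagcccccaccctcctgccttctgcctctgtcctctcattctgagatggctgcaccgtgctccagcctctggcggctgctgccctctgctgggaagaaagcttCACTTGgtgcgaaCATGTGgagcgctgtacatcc
Nrxn3 site 3: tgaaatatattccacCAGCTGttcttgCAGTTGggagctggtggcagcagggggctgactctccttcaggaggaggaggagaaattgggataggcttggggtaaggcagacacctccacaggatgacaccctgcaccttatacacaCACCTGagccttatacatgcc
Nrxn3 site 4: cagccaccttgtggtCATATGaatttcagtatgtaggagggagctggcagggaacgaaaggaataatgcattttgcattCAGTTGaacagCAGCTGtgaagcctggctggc
Nrxn2 site 1: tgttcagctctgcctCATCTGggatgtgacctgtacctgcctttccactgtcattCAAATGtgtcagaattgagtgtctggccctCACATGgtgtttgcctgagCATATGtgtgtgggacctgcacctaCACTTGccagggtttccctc
Lrrtm4 site 1: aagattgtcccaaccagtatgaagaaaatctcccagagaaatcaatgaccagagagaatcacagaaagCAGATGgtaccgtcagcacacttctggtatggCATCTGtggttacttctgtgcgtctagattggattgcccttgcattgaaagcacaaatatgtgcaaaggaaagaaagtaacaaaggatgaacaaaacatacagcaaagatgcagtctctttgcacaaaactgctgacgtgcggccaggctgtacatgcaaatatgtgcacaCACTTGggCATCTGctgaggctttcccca

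Nrxn3 (ENSMUSG00000066392, chr12:88722876-90334935, plus strand), which encodes neurexin 3, had 4 sites in its 1612 kb, more than any of the other 8 genes. All of them lay in introns, and none lay within 1000 bp of any of the 12 annotated TSSs of the gene. The site bound with all 3 antibodies, site 3, spanned chr12:89377271-89377650. Its score was 118.62 with antibody 1, 284.34 with antibody 2 and 121.2 with antibody 3. These scores exceeded 64.7%, 88.4% and 73.4% of the peaks in the respective lists, which differ in length. Among the 2088 shared sites, the score ranked 1444 with antibody 1, 1103 with antibody 2 and 813 with antibody 3. In the authors' deposited table of shared sites, whose score is the sum of the peak scores, this site had 524.16 and ranked 1174 of 2071. Among the 727 shared sites in introns it ranked 406. It was therefore a site of middle rank, close to the median summed score of 572 over all shared sites.

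Site 3 lay 655 kb from the 5′ end of Nrxn3, in intron 9 of 19 of the coding transcript ENSMUST00000163134. This intron is 149 kb long, and the closest exon of the gene was 22.8 kb away. The closest TSS of the gene, that of the coding transcript ENSMUST00000167887, lay 184354 bp upstream. A peak of antibody 2 only, site 2 (chr12:89376978-89377184, score 97.82), ended 86 bp before site 3 and held a single E-box, CATCTG. The peaks of site 3 did not reach it with any antibody.

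Sites 1 and 4 of Nrxn3 each had peaks of antibodies 1 and 2 and none of antibody 3. Site 1 (chr12:89106375-89106744) scored 57.62 with antibody 1 and 162.27 with antibody 2. Site 4 (chr12:89668924-89669180) scored 86.31 with antibody 1 and 69.89 with antibody 2. With antibody 1 the score was higher at site 4, and with antibody 2 at site 1.

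Site 1 lay 384 kb from the 5′ end, in intron 3 of 19 of ENSMUST00000163134, which is 337 kb long, and 86547 bp before the TSS of ENSMUST00000167887. Site 4 lay 946 kb from the 5′ end in intron 14 of the same 19, which is 443 kb long. The closest Nrxn3 TSS to site 4 was 143431 bp downstream of it and belonged to ENSMUST00000110130, a coding transcript of 521 kb against 1139 kb for ENSMUST00000167887. Between the sites were 270 kb from site 1 to site 2 and 291 kb from site 3 to site 4.

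The 3 Nrxn3 sites of several antibodies shared a feature of sequence. Each held a single CAGCTG with another E-box beginning at most 12 bp away. In site 1 CAGCTG was followed by CAAATG 10 bp on, in site 3 by CAGTTG 12 bp on, and in site 4 CAGTTG preceded CAGCTG by 11 bp. Such a pair with CAGCTG was present in 9.91% of the 4590 sites of 2 or 3 antibodies and in 6.56% of all sites. This spacing was chosen after the sequences had been seen, so the count of 3 of 3 is a description. CAGCTG alone was present in 56.5% of the sites of 2 or 3 antibodies.

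Nrxn2 (ENSMUSG00000033768, chr19:6418731-6544169, plus strand), which encodes neurexin 2, had 2 sites in and around its 125 kb, and neither had a peak of antibody 3. Site 1 (chr19:6416136-6416603) scored 76.24 with antibody 1 and 122.72 with antibody 2. Its midpoint lay 2362 bp upstream of the first Nrxn2 TSS, which is outside the window of 1000 bp used for promoters, and inside an intron of the predicted gene Gm14965, whose own TSS was 2237 bp away. The 5 E-boxes of this site all lay to one side, between 103 and 217 bp right of the centre, as the printed stretch shows. None lay within the central 200 bp.

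Site 2 of Nrxn2 (chr19:6533357-6534007) was a peak of antibody 2 only with a score of 59.57, above 18.2% of that list. It began 140 bp beyond the end of the nearest Nrxn2 exon, and of the 18 transcripts of the gene only 1, ENSMUST00000113459, runs across it. In that transcript the site fell in the last intron, of 23 kb. The closest protein-coding TSS was that of Slc22a12, 9029 bp away, a urate transporter gene that overlaps Nrxn2. The site held 7 E-boxes, the most at any of the 12 sites, at a length of 651 bp.

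Nlgn2 (ENSMUSG00000051790, chr11:69823122-69837784, minus strand), the neuroligin of inhibitory synapses, had a peak of antibody 2 only at its own promoter, site 1 (chr11:69837594-69838122). The score was 58.54, and the midpoint lay 74 bp upstream of the Nlgn2 TSS. This was one of the weaker peaks at the 9 genes. The site held a single E-box, a CAGCTG that lies 235 bp upstream of the TSS, and its GC content was 68.1%. Its sequence on the plus strand at chr11:69838007-69838036, shown because it is the single E-box of the peak at the Nlgn2 promoter, was as follows, with the E-box in capitals.
Nlgn2 site 1 E-box: caagggggagaaCAGCTGaactatagaggg

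The other site in the Nlgn2 span, site 2 (chr11:69846290-69846898), had all 3 antibodies. Its scores were 55.74 with antibody 1, 124.52 with antibody 2 and 55.5 with antibody 3, above 15.8%, 64.2% and 19.9% of the respective lists. In the deposited table the site ranked 1994 of 2071 with 235.76. Its midpoint was 8810 bp upstream of the Nlgn2 TSS and 23 bp from the TSS of Plscr3, a phospholipid scramblase gene, to which the deposited table assigned it. It entered the count for Nlgn2 through the 10 kb flank. None of its 3 E-boxes lay wholly within the central 200 bp, and its GC content was 66.2%.

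Nlgn1 (ENSMUSG00000063887, chr3:25426215-26332460, minus strand), the neuroligin of excitatory synapses, had 2 sites in its 906 kb, each with a single antibody and a score near the lowest in the lists. Site 1 (chr3:25482297-25482429) was a peak of antibody 3 with a score of 54.7, in intron 3 of 5 of ENSMUST00000075054, which is 473 kb long, and it held 1 CACCTG. Site 2 (chr3:26039777-26039933) was a peak of antibody 2 with a score of 51.51, above only 3.57% of that list, in intron 1 of the same transcript, 93879 bp downstream of its TSS. Site 2 was added to those described after its values had been seen. At Nlgn1 no peak of antibody 1 and no site of several antibodies was present.

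Among the genes of the postsynaptic side, the highest scores were at Lrrtm4 (ENSMUSG00000052581, chr6:80018877-80810143, plus strand). Its LRRTM protein binds neurexins and heparan sulfate proteoglycans at excitatory synapses. The single site in its 791 kb (chr6:80622541-80623206) scored 740.19 with antibody 1, 672.41 with antibody 2 and 178.04 with antibody 3. All antibodies thus had their highest peak at the 9 genes here. These scores exceeded 97.8%, 97.6% and 85.7% of the peaks in the respective lists. Antibody 3 had a further peak of 53.21 within the site, 114 bp beyond its first one, while antibodies 1 and 2 each had 1 broad peak.

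In the deposited table the Lrrtm4 site had a score of 1643.85, rank 167 of 2071, and it was number 73 of the 727 shared sites in introns. The site lay in the last intron of the gene, 786 kb long, 599 kb from the start of that intron and 186 kb before the closest exon. It was 604 kb from the 5′ end of the gene. Of the 8 Lrrtm4 transcripts, 3 run across the site and the others end before it. The closest annotated TSS of any gene, that of the predicted gene Gm44231, lay 32156 bp away.

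The 6 E-boxes of the Lrrtm4 site were 4 of the form CAGATG or its reverse complement CATCTG, 1 CATATG and 1 CACTTG. The CACTTG and a CATCTG began 8 bp apart, as can be read near the end of the printed stretch. No CAGCTG was present, unlike at the Nrxn3 sites of several antibodies. Of the E-boxes, 2 fell in the central 200 bp.

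**Figure D2:**
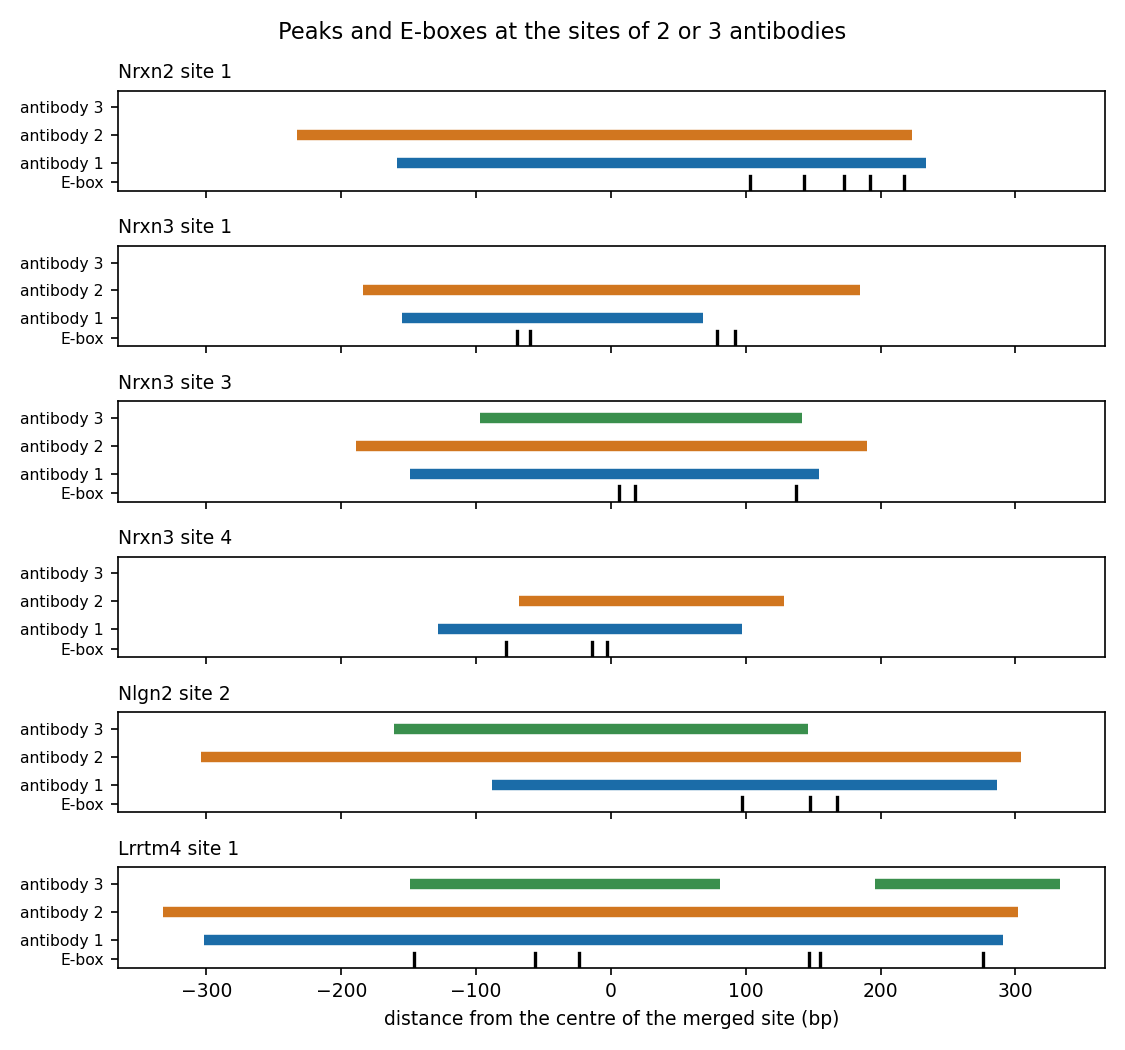
Extent of the peaks and positions of E-boxes at the 6 sites of 2 or 3 antibodies. The horizontal axis is the distance in bp from the centre of the merged site, coloured bars are peaks of antibodies 1 to 3, and black ticks are the middles of E-boxes. The E-boxes of Nrxn3 site 1 and of the Lrrtm4 site lie on both sides of the centre, and those of the other sites on one side of it.

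Lrrtm2 (ENSMUSG00000071862), a short LRRTM gene of 6.02 kb, had its single site at its promoter. This was a peak of antibody 2 only (chr18:35214820-35215112) with a score of 141.34, above 69.4% of that list, and the highest score among the 5 sites of antibody 2 only. Its midpoint was 42 bp downstream of an Lrrtm2 TSS and 10 bp from a TSS of Ctnna1, the alpha-catenin gene that overlaps Lrrtm2. To which of these genes the peak belongs cannot be told apart from its position. It held 1 CAGCTG and 1 CAGATG.

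The remaining genes had no peak in their spans, and the closest sites outside are given as values only. For Nlgn3 (26.8 kb, on the X chromosome) the closest site was 103 kb away, a peak of antibody 2 with a score of 96.26 at the promoter of Nono, and the closest site of all antibodies was 161 kb away. Lrrtm1 (15.1 kb) lies inside Ctnna2, and its closest site was 168 kb away, again a peak of antibody 2 only, with a score of 58.69. Lrrtm3 (162 kb) overlaps Ctnna3, and its closest site was 89.1 kb away in an intron, with peaks of antibodies 1 and 2 and a summed score of 272.01. For these 3 genes a weaker enrichment under the score of 50 cannot be seen in the lists.

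**Figure D3:**
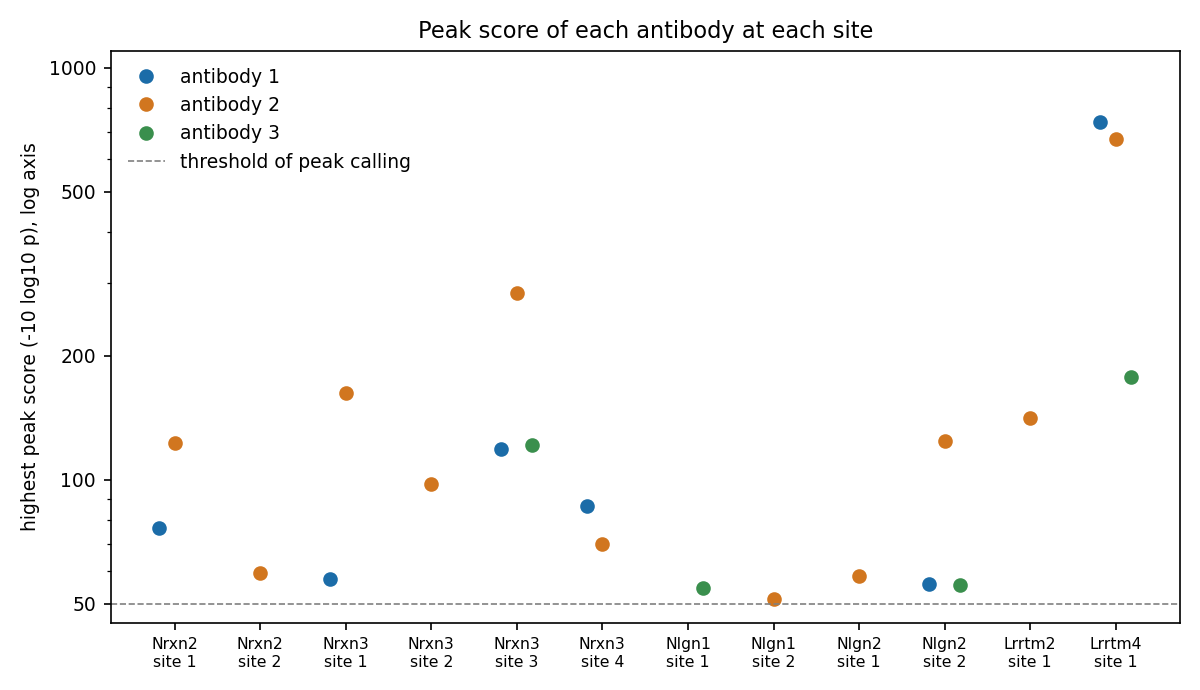
Highest peak score of each antibody at each of the 12 sites. The vertical axis is minus 10 times the log10 of p on a log axis, each point is 1 antibody, a missing point means no peak, and the dashed line is the lowest score in the lists, 50. The Lrrtm4 site stands above all others, and the Nlgn1 sites and Nlgn2 site 1 lie close to the line.

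By antibody, peaks of antibody 1 were present in 4 of the 9 genes, against 15.4% of all protein-coding genes. Antibody 2 had peaks in 6 genes, against 33.2%, and antibody 3 in 4, against 11.1%. The 6 peaks of antibody 1 lay between 55.74 and 740.19 (median 81.3), and the 11 of antibody 2 between 51.51 and 672.41 (median 123). The 5 of antibody 3 lay between 53.21 and 178.04 (median 55.5). Beside these stand the medians of the whole lists, 86.4, 93.9 and 76.7. Over all antibodies, 12 of the 22 peaks (54.5%) scored under 100, and in the whole lists this share was 57.3%, 53.6% and 65.4%. Scores were not scaled between libraries, so values are compared within a list.

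Binding at the genes' own promoters is given beside the share over all genes, and the difference was not tested. A site at the gene's own promoter, within 1000 bp of one of its TSSs, was present for 2 genes, Nlgn2 and Lrrtm2, against 19.6% of all genes. In both cases it was a peak of antibody 2 only, which was found for 13.4% of all genes. The one at Lrrtm2 also lay at a TSS of Ctnna1. No own promoter had a site of all antibodies, against 2.82% of all genes. Of the 3 promoter sites in the spans, without antibody 2 only 1 was left, that of Plscr3. In RefSeq promoter sequences on GRCm38, from 250 bases before to 50 after the gene start, 10 promoters of 6 of the genes were available, and only 1 of them, that of Nlgn2, lay in a site. An E-box on either strand was present in 7 of these 10, against 72.3% of 32851 promoters, CAGCTG in 3, against 16.3%, and CAGATG or CATCTG in 0, against 17.2%. E-boxes were thus also present at promoters of these genes where no peak was called.

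Length was taken into account by comparing each gene with the genes whose spans fall in the same class. The longest class, spans of 500 kb or more, held 251 genes, among them Nrxn3, Nlgn1 and Lrrtm4. All 3 had a site, against 78.5% of the class, and 2 of them, Nrxn3 and Lrrtm4, had a site of all antibodies, against 37.8%. The median of the class was 2 sites, with quartiles of 1 and 4.5. Nrxn3 with 4 sites was exceeded by 25.1% of the class, Nlgn1 with 2 by 45.4%, and Lrrtm4 with 1 by 62.5%. In all 3 genes the number of sites lay between the quartiles of the class or, for Lrrtm4, on the lower one.

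Spans of 50 to 250 kb held 6849 genes, including Nrxn2 and Lrrtm3. A site was present in 1 of these 2, Nrxn2, against 45.2% of the class, and a site of all antibodies in neither, against 9.56%. The 2 sites of Nrxn2 were exceeded by 6.73% of the class and equalled by 11.1%. Lrrtm3 without a site was like 54.8% of the class.

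Spans under 50 kb held 14276 genes, including Nlgn2, Nlgn3, Lrrtm1 and Lrrtm2. A site was present in 2 of these 4, Nlgn2 and Lrrtm2, against 28.1% of the class, and a site of all antibodies in 1, Nlgn2 through the Plscr3 promoter, against 5.25%. The 2 sites in the span of Nlgn2 were exceeded by 2.25% of the class and equalled by 6.05%. The 1 of Lrrtm2 was exceeded by 8.29% and equalled by 19.8%. Nlgn3 and Lrrtm1 without a site were like 71.9% of it.

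**Figure D4:**
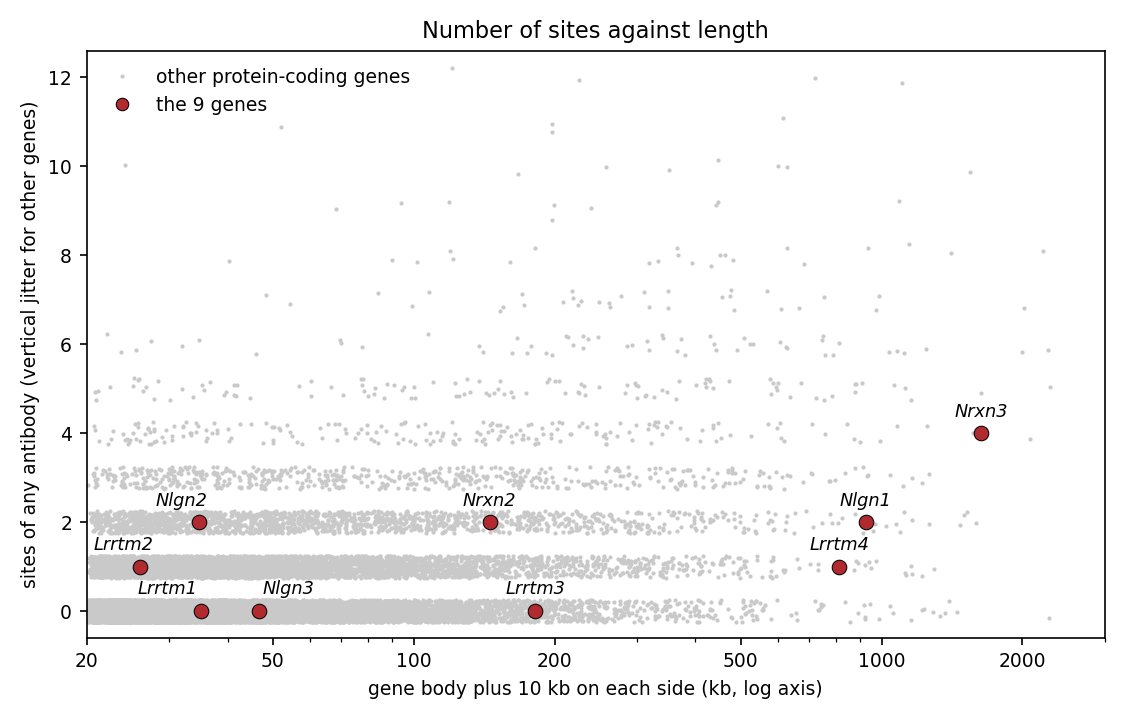
Sites of any antibody against length. The horizontal axis is the gene body plus 10 kb on each side in kb on a log axis, grey points are the other protein-coding genes with small vertical shifts so that they can be told apart, and red points are the 9 genes. The 15 genes with more than 12 sites are not drawn. All red points lie among the grey ones, with Nrxn3 highest at 4 sites.

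Per length, the spans of the 9 genes, 3.84 Mb in all, had 0.313 sites per 100 kb, against 0.857 in the spans of all protein-coding genes and 0.463 in the genome as a whole. The ratio of the 9 genes to all genes was 0.365, and with the peaks of a single antibody it was 0.504, 0.366 and 0.645 for antibodies 1, 2 and 3 (SD 0.139, n = 3 antibodies). The ratio was under 1 with each list. These ratios are not corrected for length, and all 3 lists were called against the same GFP library. Spans of 500 kb or more had a lower density in general, 0.409 sites per 100 kb, and in Nrxn3, Nlgn1 and Lrrtm4 together it was 0.208. In spans of 50 to 250 kb it was 0.79 for the class and 0.611 in Nrxn2 and Lrrtm3 together. In spans under 50 kb it was 1.28 for the class and 2.1 in Nlgn2, Nlgn3, Lrrtm1 and Lrrtm2 together. The latter value rests on the 2 sites of Nlgn2, of which 1 is at the Plscr3 promoter, and the 1 of Lrrtm2, which also lies at a Ctnna1 TSS. The genes within a class differed, since Nrxn2 alone had 1.38 and Nlgn3, Lrrtm1 and Lrrtm3 had 0. Sites of all antibodies numbered 0.0781 per 100 kb at the 9 genes, 0.131 in all protein-coding spans and 0.0766 in the genome.

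All 12 sites held at least 1, with 38 in total and 1 to 7 per site, and 90.6% of all sites genome-wide held one. Per kb, the sites had 8.05 E-boxes and the rest of the 9 spans 5.36, while all sites genome-wide had 8.01. In the central 200 bp the mean was 1.67 ± 1.3 (SD, n = 12 sites), against 1.07 per 200 bp in the rest of the spans, a ratio of 1.55. With the peaks of a single antibody the ratio was 2.02, 1.53 and 1.12 for antibodies 1, 2 and 3 (SD 0.451). This SD is the spread between the 3 antibodies and not the error of any single ratio. The ratio of antibody 3 rests on 5 peaks, and none of these ratios was tested.

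For comparison, the mean of central E-boxes over all sites genome-wide was 1.99, and over all shared sites 2.44. The 6 sites of 2 or 3 antibodies had 1.83 ± 1.6 (SD, n = 6 sites), and the 6 of 1 antibody 1.5 ± 1.05 (SD, n = 6 sites). These differences were not tested.

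The words among CANNTG were not used evenly. CAGATG or CATCTG made up 13 of the 38 E-boxes and CAGCTG 5. Per kb, the former stood at 2.75 in the sites, 0.751 in the rest of the spans and 2.1 in all sites genome-wide. CAGCTG stood at 1.06, 0.313 and 1.73, so it was sparser in these sites than in all sites. Together these words were 47.4% of the E-boxes in the 12 sites, 19.8% in the rest of the spans and 47.9% in all sites genome-wide. In 11 of the 12 sites at least one of them was present, against 74.8% of all sites and 92.4% of shared sites. The exception was Nlgn1 site 1, the peak of antibody 3 only. CAAGTG or CACTTG, also with 5 E-boxes, stood at 1.06 per kb in the sites, 0.581 in the rest of the spans and 0.498 in all sites genome-wide. CACGTG and CAATTG were at 0 in the 12 sites.

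Genes of ligands, receptors and intracellular partners of neurexins and neuroligins, with relatives of the same families, were listed separately, 22 in all. A site of all 3 antibodies was present in the spans of 6 of them (27.3%) and any site in 13 (59.1%), beside the 7.52% and 35.2% of all genes given above. These shares are not corrected for length, and the median span in the list was 91.6 kb. The density was 0.495 sites and 0.189 shared sites per 100 kb, against 0.857 and 0.131 in all protein-coding spans. The highest summed scores were 2832.27 at Clstn2, a calsyntenin of the postsynaptic membrane, and 1245.29 at Grid1, a delta glutamate receptor linked to neurexins by cerebellins. Both of these sites were in introns, and Grid1 had 4 shared sites.

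Further shared sites in this list lay within 1000 bp of an annotated TSS. They were at Apba1 (1239.82), a presynaptic adaptor that binds neurexins, Mdga1 (845.77), which binds neuroligins and blocks their contact with neurexins, Dlg4 (545.79), the postsynaptic scaffold PSD-95, and Nxph3 (190.63), a neurexophilin ligand of alpha-neurexins. The Mdga1 site lay 5003 bp from the closest TSS of a protein-coding transcript, and those of Apba1, Dlg4 and Nxph3 at most 200 bp from one. The cerebellin genes Cbln1, Cbln2 and Cbln4 had no site. Of these 6 scores, all but that of Nxph3 exceeded the 524.16 of Nrxn3 site 3, and only that of Clstn2 exceeded the 1643.85 of Lrrtm4.

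Among 24 other genes of synaptic organisers, 6 (25%) had a site of all antibodies and 16 (66.7%) any site, again beside 7.52% and 35.2% of all genes and not corrected for length, with a median span of 108 kb. The density was 0.516 sites and 0.0906 shared sites per 100 kb, so both lay under the values of all protein-coding spans. The highest summed scores were 1541.95 in an intron of Tenm4, a teneurin with 20 sites of which 5 were shared, and 1163.94 at a promoter of Ptprs, a presynaptic receptor tyrosine phosphatase. Adgrl3, a latrophilin, had 790.63, Ptprf 445.12, Tenm2 332.09 and Lrrc4, which lies inside Snd1, 277.14. The 0.313 sites per 100 kb of the neurexin, neuroligin and LRRTM genes rest mainly on their 3 spans of 500 kb or more, so these densities are given side by side without allowance for length.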

How the data were processed

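The peak lists of NEUROD2 antibodies 1, 2 and 3 were used, with 1 library each. Reads had been mapped by the authors to mm10 with Bowtie, and MACS had been run on each library with the GFP library as control. The deposited lists give each peak a score, minus 10 times the log10 of p. The authors' deposited table of 2071 shared sites gives as its score the sum of these peak scores, as checked for 2051 of them whose limits matched a merged site. No read counts were given, so depth and counting error are unknown.

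Peaks with 1 bp or more in common were merged. The midpoint of a site decided its class in GENCODE M21, a promoter when at most 1000 bp from a TSS and otherwise exon, intron or intergenic. E-boxes (CANNTG) were counted on GRCm38 over whole sites and in their central 200 bp. Counts of genes were set beside the same share over all protein-coding genes, and no p was computed. The genes and lists were chosen with earlier results of these data known. Sites of several antibodies, promoter sites and the highest site of 1 antibody per gene were named, and of each list at most the 8 genes with the highest shared site. Alternatives concerned span, overlap, score, TSSs and leaving out each antibody. Scripts were tested on simulated data and used Python 3.11.15, numpy 2.4.6, pysam 0.24.0 and matplotlib 3.10.9.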

Additional observations from a re-analysis of the deposited data

How the results depend on the processing

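Of 59 alternatives computed for the counts, densities and E-box ratios, 55 left the value within 1.5 times the value given or within the spread between antibodies. The others concerned the score and single libraries. With peaks of a score of at least 100 only, the 9 genes had 6 sites in place of 12. Leaving out each antibody in turn gave 7 to 12 sites, 1 to 3 promoter sites and 3 to 6 sites common to all remaining antibodies. The lowest numbers of sites and promoter sites came without antibody 2, and the 6 common sites came without antibody 3. Enrichment under a score of 50 is not recorded in the lists. Depth may also limit them, but it is unknown and could not be related to the number of peaks of a library. No paired analysis was possible because each antibody had 1 library and no groups were compared.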
